A study of Mus musculus with 23 samples.

Results

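Primary mouse myoblasts of 3 cultures, numbered 21, 26 and 27, were compared with the myotubes that each culture formed after 1 day in differentiation medium. The 6 libraries (3 per stage) are part of 23 in the series. All are from male C57BL/6J mice, per the labels. Myoblasts were proliferating muscle precursor cells at passages 8 to 10 in Ham's F-10 with serum and bFGF, and day 1 myotubes were confluent myoblasts on matrigel moved to DMEM with a low level of horse serum. No altered gene or drug is named. Titles of the culture 21 libraries carry the tag wt, and those of cultures 26 and 27 carry no genotype tag. One field of the culture 21 day 1 library calls its cells myoblasts, while its title, source and description give day 1 of differentiation, which was used. The files hold DNA methylation and no expression, so cell identity and fusion could not be checked against markers. Of 173430 fragments in the count table, 49684 are under 2000 bp and lie on chromosomes 1 to 19, and the comparison is over these. The labels do not say whether each culture came from a separate animal, so p-values measure the spread between these samples.

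DNA methylation was read with AIMS-seq, which uses a pair of enzymes with the same site. SmaI cannot cut a methylated copy of the site and leaves blunt ends at the others. XmaI then opens the methylated copies with cohesive ends, which accept the adaptors. A fragment between neighbouring sites is therefore amplified from molecules methylated at both ends, and its read count is a relative measure of how often that happens. It is not a percentage of methylated molecules, and it also follows amplification and the number of genome copies. All 49684 fragments begin and end at the recognition site in the mm9 sequence.

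Myogenic differentiation is driven by MyoD family transcription factors, which act with Mef2 proteins while Pax3 and Pax7 mark precursor cells. On transfer to low serum, myoblasts leave the cell cycle, switch on contractile genes and fuse. CpG methylation is placed by Dnmt enzymes and its removal is started by Tet enzymes. Promoter CpG islands are mostly unmethylated in normal tissues, whereas repeats and gene bodies are mostly methylated.

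Some of the fragments with the smallest p among those that moved one way in all 3 cultures are shown first, since they are the nearest that the data come to a shared day 1 difference. They are the first 4 in each direction in order of p, leaving out fragments that overlap a UTR, which passes over the Timm10 fragment described below. None of them passed the test. Capitals mark the enzymes' site at each end and any CAGCTG, a form of the E-box that MyoD proteins bind. Runs are from mm9, plus strand, and start or end with the whole site, or do both where the fragment is shown whole. The 4 fragments higher on day 1 are over 300 bp and are shown by their first and last 60 bases. They are an intergenic fragment at chr4:140405061-140405465, an intergenic fragment at chr11:20353235-20353847 in an MLT1H repeat and a CpG shore, an intronic fragment of Actn3 at chr19:4875736-4876488, and an exonic fragment of Gipc3 at chr10:80803703-80804150.
chr4 fragment, first: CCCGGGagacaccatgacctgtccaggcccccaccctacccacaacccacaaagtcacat
chr4 fragment, last: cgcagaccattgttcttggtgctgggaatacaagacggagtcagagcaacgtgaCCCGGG
chr11 fragment, first: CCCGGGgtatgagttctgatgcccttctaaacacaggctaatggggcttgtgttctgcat
chr11 fragment, last: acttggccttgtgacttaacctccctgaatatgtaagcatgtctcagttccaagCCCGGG
Actn3 fragment, first: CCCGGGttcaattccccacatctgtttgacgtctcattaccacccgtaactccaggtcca
Actn3 fragment, last: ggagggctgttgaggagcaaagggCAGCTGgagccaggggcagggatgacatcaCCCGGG
Gipc3 fragment, first: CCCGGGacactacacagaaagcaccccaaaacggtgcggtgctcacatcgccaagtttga
Gipc3 fragment, last: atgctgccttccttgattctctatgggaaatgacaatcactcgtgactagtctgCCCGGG

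The fragments lower on day 1 are shown whole. They are in introns of Kif16b (chr2:142481097-142481323, an RMER17D2 repeat) and Thsd7a (chr6:12621765-12621816, an L1Md_A repeat), and between genes at chr9:61164877-61165110 and chr1:119994046-119994097 (an L1Md_T repeat).
Kif16b fragment: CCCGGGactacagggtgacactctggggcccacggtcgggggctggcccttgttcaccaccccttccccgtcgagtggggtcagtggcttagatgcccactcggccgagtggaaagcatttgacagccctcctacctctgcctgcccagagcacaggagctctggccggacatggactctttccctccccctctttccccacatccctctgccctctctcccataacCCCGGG
Thsd7a fragment: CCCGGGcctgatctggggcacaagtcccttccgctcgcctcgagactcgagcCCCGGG
chr9 fragment: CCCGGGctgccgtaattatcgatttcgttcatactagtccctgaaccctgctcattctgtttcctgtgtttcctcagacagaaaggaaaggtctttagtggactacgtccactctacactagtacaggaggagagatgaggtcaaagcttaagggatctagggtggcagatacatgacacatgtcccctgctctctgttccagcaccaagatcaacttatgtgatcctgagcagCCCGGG
chr1 fragment: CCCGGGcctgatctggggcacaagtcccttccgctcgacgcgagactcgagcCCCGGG
The Thsd7a and chr1 fragments are copies of the LINE-1 element that differ at 2 of the 58 bases printed, so the counts of each are uncertain where alignment could not separate such copies. The motif CAGCTG, which reads the same on both strands, is in 33.3% of all 16084 fragments tested, in 3 of the 12 fragments with the smallest p that were higher and in 1 of the 12 that were lower.

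The 6 libraries held 7683633 to 11786743 reads, of which 92.4% to 94.9% fell in the 49684 fragments. No read was found in 23069 fragments in any of the 6 libraries, and 16084 (median length 703 bp) passed the filter on low counts and were tested. Myoblasts and day 1 myotubes of one culture resembled each other closely in culture 21 (Pearson r = 0.993) and culture 26 (r = 0.976). In culture 27 they did so less (r = 0.887). Each r is across tested fragments, on log2(TMM-scaled CPM + 1). CPM is the fragment's count scaled to the library's total, and TMM scaling adjusts that total for each library. These correlations are across the fragments of 2 libraries and carry no test. The day 1 library of culture 27 stood apart, with r of 0.666 and 0.687 to the 2 libraries of culture 21. The myoblasts of culture 27 were closer to day 1 of culture 26 (r = 0.916) than to their own day 1. For each comparison tested across fragments, the total count of called fragments is also given without culture 27.

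**Figure D1:**
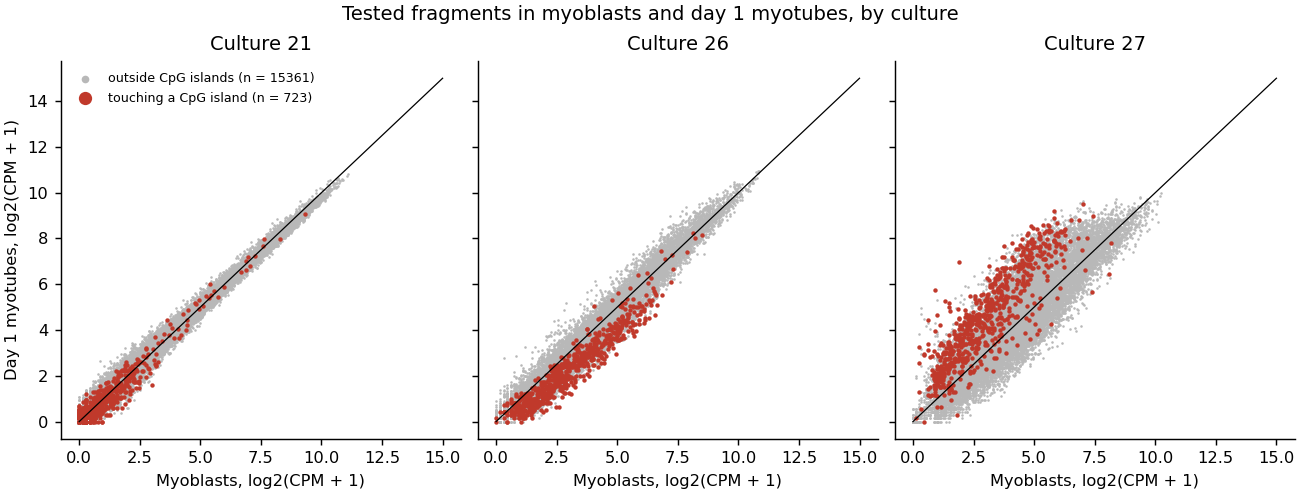
Level of each of the 16084 tested fragments in myoblasts (x axis) and day 1 myotubes (y axis) of each culture, in log2(TMM-scaled CPM + 1), with fragments that touch a CpG island in red and the line of equal levels in black. Culture 21 lies along the line, island fragments lie mostly under it in culture 26 and mostly over it in culture 27.

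No fragment passed the test of day 1 myotubes against myoblasts with cultures paired. With edgeR's quasi-likelihood test and culture as a block, 0 of 16084 fragments passed an adjusted p of 0.05, a background of 0.0%, and the lowest adjusted p was 1.0. DESeq2 also called 0 (0.0%). At an unadjusted p under 0.05 edgeR gave 55 fragments (0.342%), of which 47 (0.292%) were higher on day 1 and 8 (0.0497%) lower. DESeq2 gave 63. Evenly spread p-values would put a share of 0.05 of the fragments there. Both counts are far below that, so the paired test was conservative in these libraries and the 55 are no set of day 1 differences. Without culture 27 edgeR gave 759 of 15187 at that unadjusted p. The median log2 difference over all fragments tested was 0.03. The common biological coefficient of variation, the spread of counts around the paired fit, was 0.392 in these libraries. Without culture 27 it was 0.194, and then 1 of 15187 fragments (0.00658%) passed. That fragment touches the promoter and CpG island of Rps18, a ribosomal protein gene, and of Vps52 (chr17:34093072-34093381). Its reads in cultures 21, 26 and 27 were 10, 387 and 195 in myoblasts and 5, 115 and 964 on day 1. It was lower on day 1 in cultures 21 and 26 (log2 difference -1.81, adjusted p = 0.0451 by edgeR, 2 cultures) and higher in culture 27. Without culture 26 another single fragment passed, in an intron and CpG island of Dlx6os1, a noncoding RNA gene of the Dlx locus (chr6:6810640-6810878). It had 10 reads in myoblasts and 457 on day 1 in culture 27, 8 and 3 in culture 26, and 0 in both libraries of culture 21 (log2 difference 5.67 without culture 26, adjusted p = 0.0263 by edgeR). Both were chosen because they passed in these alternatives.

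The cultures moved in different directions. Day 1 and myoblasts lay over 1 log2 unit apart, on TMM-scaled CPM with 1 added, in 81 fragments of culture 21 (0.504%), in 872 of culture 26 (5.42%) and in 5008 of culture 27 (31.1%). In culture 21, 62 of these were higher on day 1 and 19 lower. Culture 26 had 209 higher and 663 lower, the opposite balance to culture 27, which had 3409 higher and 1599 lower. No fragment was over 1 log2 unit higher, and none over 1 log2 unit lower, in all 3 cultures. There were 538 fragments over 1 log2 unit higher in one culture and as far lower in another. Across fragments the day 1 difference of culture 27 had a Pearson r of -0.39 with that of culture 26 and -0.21 with that of culture 21, and cultures 21 and 26 had r = -0.03. The points of these correlations share libraries, and each culture has 1 library per stage. Of all fragments tested, 1086 (6.75%) were higher in all 3 cultures and 1246 (7.75%) were higher in none.

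Differences among the 3 cultures were common. In the same edgeR fit, 6633 of 16084 fragments (41.2%) differed among cultures at an adjusted p under 0.05. Of these, 2285 (14.2% of those tested) were higher in culture 21 than in the mean of the others and 4348 (27%) lower. Without culture 27 the count was 8745, without culture 26 it was 5715, and without culture 21 it was 403. DESeq2 gave 6895. In these 6 libraries 41.2% of fragments passed for culture and 0.0% for day 1. The fit takes disagreement between cultures in the day 1 difference as spread. The 0.0% therefore does not address day 1 differences within a single culture. Each culture had 1 library per stage, so such differences could not be told apart from variation between libraries and were not tested. In culture 27, 31.1% of fragments were over 1 log2 unit apart between the stages.

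Tested fragments of CpG islands differed among cultures more often than tested fragments as a whole. Of 14732 fragments that touch an island, 723 passed the filter on low counts. A fragment high in a single culture could pass it, so the filter itself favours fragments that differ among cultures. Of the 723, 641 (88.7%) differed among cultures by edgeR, beside 41.2% of all fragments, and 632 of the 641 were lower in culture 21. Their median log2 difference of day 1 from myoblasts was 0.0 in culture 21, -0.71 in culture 26 and 1.56 in culture 27. Island fragments were higher on day 1 in 38.6% of cases in culture 21, 6.09% in culture 26 and 92.1% in culture 27. None passed the day 1 test, since 0 of 16084 did, and 3 of the 723 had an unadjusted p under 0.05. Shores, the flanks of islands, followed the same order with smaller medians (-0.02, -0.36 and 0.82). The 14140 fragments away from islands and shores had medians of 0.02, -0.04 and -0.03.

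**Figure D2:**
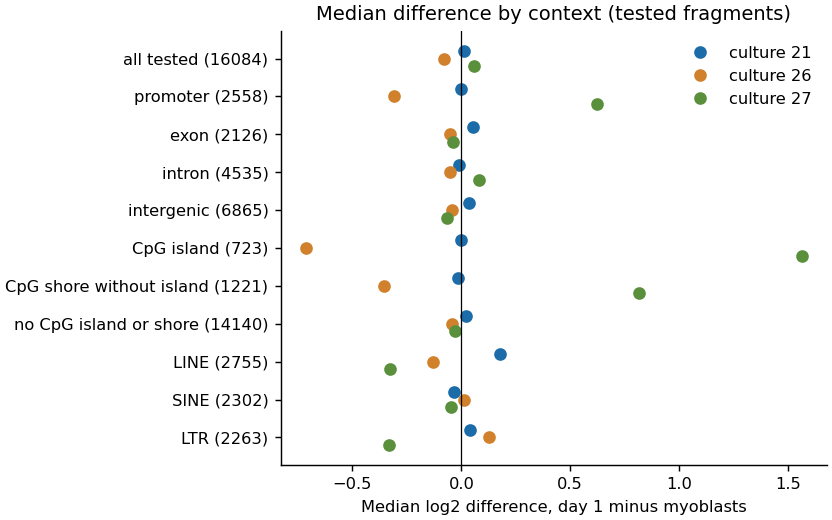
Median log2 difference of day 1 from myoblasts (x axis) for tested fragments of each genomic context (y axis, number of fragments in brackets), 1 point per culture. Promoter, island and shore medians lie left of 0 in culture 26 and right of 0 in culture 27, and in culture 21 they lie near 0.

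Promoter island fragments without a repeat numbered 12003, of which 479 were tested. As a share of reads they made up 0.109% in myoblasts and 0.104% on day 1 in culture 21. Culture 26 had 0.692% and 0.364%. Culture 27 had 0.818% and 2.73%. The day 1 value of culture 27 was the highest of the 6 and culture 21 was low at both stages. On days 2 and 4 the same cultures gave 0.103% and 0.115% (21), 0.342% and 0.616% (26) and 0.648% and 2.84% (27), so culture 27 was high on days 1 and 4 and not on day 2. In 2 passage 0 libraries, with culture numbers 26 and 27, the share was 0.297% and 0.108%, and in 3 libraries of adult muscle it ran from 0.934% to 2.94%. Whether cells other than muscle cells, copy number or library preparation had a part in these values was not tested.

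**Figure D3:**
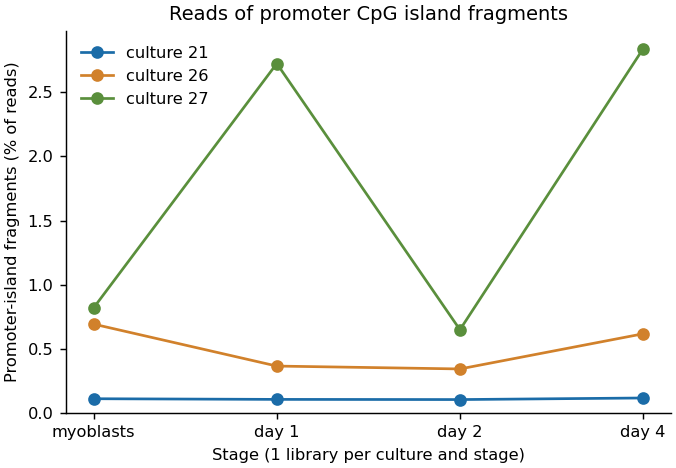
Share of reads in promoter CpG island fragments without a repeat (y axis, percent of reads in fragments under 2000 bp on chromosomes 1 to 19) at each stage (x axis), 1 point per library and 1 line per culture. Culture 27 reaches 2.73% on day 1 and 2.84% on day 4 with 0.648% between them, and culture 21 stays between 0.103% and 0.115%.

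Medians of LINE and LTR fragments had the other sign from islands in culture 27. LINE fragments (2755 tested) had a median log2 difference of 0.18 in culture 21, -0.13 in culture 26 and -0.33 in culture 27. LTR fragments (2263) had 0.04, 0.13 and -0.33, and SINE fragments (2302) -0.03, 0.01 and -0.05. Among cultures 22.1% of LINE and 26.8% of LTR fragments differed by edgeR, beside 41.2% of all. Medians also varied with fragment length. In culture 27 fragments of 300 to 499 bp had a median of 0.68 and those of 1000 to 1999 bp -0.22, and in culture 26 the 2 classes had -0.16 and 0.0. By GC content the medians of culture 27 followed no single direction, at -0.13 under 45% GC, 0.03 from 45%, 0.33 from 50%, 0.39 from 55% and -0.29 from 60% upward. The part of length and GC content in the island difference was not tested.

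No genomic context's share of reads passed a test between the stages. Promoter fragments took 11.4%, 12.8% and 12.2% of reads in the myoblasts of cultures 21, 26 and 27, and 11.3%, 12.1% and 16.2% on day 1. The mean difference was 1.05 percentage points ± 2.60 (SD, n = 3 cultures), higher in 1 of 3 cultures (exact paired permutation p = 1.0, adjusted over 10 contexts 1.0). All CpG islands took 0.975% ± 0.592 in myoblasts and 1.76% ± 2.18 on day 1 (SD, n = 3, exact permutation p = 0.75, adjusted 1.0). Intronic fragments, 34.0% ± 0.631 and 33.5% ± 1.19, had a mean difference of -0.530 points and were higher on day 1 in 0 of 3 cultures (exact permutation p = 0.25, adjusted 1.0). With 3 pairs no 2-sided p can go below 0.25. At an equal depth of 7184895 reads, 13925, 16316 and 16879 fragments had 5 or more reads in the myoblasts of cultures 21, 26 and 27 and 14274, 15827 and 16433 on day 1. The means were 15706.7 ± 1568 and 15511.3 ± 1114 (SD, n = 3, exact permutation p = 0.5), and the stages overlapped.

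Genes of the myogenic programme gave no called fragment. Of 29 genes listed as myogenic regulators, 12 had a tested fragment, 19 fragments in all, and 0 passed (0.0% of all tested passed). The median log2 difference of the list was 0.29, beside 0.03 over all fragments, and by culture it was 0.08, -0.44 and 1.20. The contractile and excitation list had 43 tested fragments of 25 genes, 0 called and a median of 0.09. Myod1, Myog, Mef2a and Cdh15 have fragments, none of which passed the filter on low counts, and Myf6 has no fragment. Myf5, the first MyoD family gene of the embryo, is represented by an exonic fragment (chr10:106921116-106921344). It had 8, 49 and 91 reads in the myoblasts of cultures 21, 26 and 27 and 4, 41 and 321 on day 1. Among the 6 libraries it was high only in day 1 of culture 27. In unscaled CPM that library had 36.0, and days 2 and 4 of culture 27 had 14.1 and 35.4. Adult muscle had 23.2 to 45.9, and embryonic stem cells had 58.6 to 74.9. The log2 difference of day 1 from myoblasts was 0.38 ± 0.71 (SE), with an adjusted p of 1.0 by edgeR.

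Pax3 and Pax7 are the paired box factors of muscle precursors. The Pax3 fragment lies in its promoter and CpG island (chr1:78193784-78194508). Reads were 28, 70 and 289 in myoblasts and 27, 83 and 976 on day 1. The log2 differences on scaled CPM were -0.17 in culture 21, -0.02 in culture 26 and 2.07 in culture 27, and the fitted one was 0.65 ± 0.56 (adjusted p = 1.0 by edgeR). The exonic Pax7 fragment that overlaps a UTR (chr4:139294972-139295493) was read far more often, with 1013, 445 and 2462 reads in myoblasts and 1083, 579 and 1305 on day 1. Its stages overlapped, and the log2 difference was -0.18 ± 0.31 (95% interval -0.87 to 0.52, adjusted p = 1.0 by edgeR).

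Mef2c, a partner of the MyoD factors, had the smallest p of the myogenic list. The fragment is in a CpG shore at its promoter (chr13:83661913-83662523). Reads were 116, 199 and 193 in myoblasts and 139, 588 and 467 on day 1, so the stages were close in culture 21 and day 1 was higher in the other cultures. In TMM-scaled CPM the means were 18.8 ± 6.36 and 43.6 ± 25.9 (SD, n = 3), with a log2 difference of 1.02 ± 0.45 (unadjusted p = 0.05, adjusted p = 1.0 by edgeR). For differences among cultures its adjusted p was 0.118 by edgeR. On days 2 and 4 the unscaled CPM was 17.6 and 20.5 in culture 21, 62.5 and 55.6 in culture 26, and 72.0 and 55.3 in culture 27, beside 12.5, 65.1 and 52.4 on day 1. The Mef2d fragment (chr3:87973581-87974399, an exon) had 222, 172 and 377 reads in myoblasts and 346, 222 and 129 on day 1, with culture 27 low on day 1. The Six4 fragment, in an intronic CpG island of this homeobox factor (chr12:74212106-74212828), had 6, 107 and 294 and then 12, 70 and 737 reads.

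Contractile genes varied by culture. Ckm encodes muscle creatine kinase, and its promoter fragment (chr7:19996443-19997294) had 95, 1 and 100 reads in myoblasts and 132, 1 and 273 on day 1. Culture 26 had almost no reads at either stage, and the fragment differed among cultures (adjusted p = 0.00718 by edgeR). Acta1, skeletal muscle actin, had 58, 559 and 338 reads at its promoter shore (chr8:126417989-126418689) in myoblasts and 47, 298 and 946 on day 1. Culture 26 was lower and culture 27 higher on day 1, and the log2 difference was 0.04 ± 0.63 (adjusted p = 1.0 by edgeR), which was -0.06 with library totals and -0.10 in the fit of 12 libraries. Ryr1, the calcium release channel, had 1012, 3302 and 814 reads in an exon (chr7:29830592-29830973) and 1428, 3154 and 794 on day 1. Its 95% interval, -0.51 to 0.71 log2 units around 0.10, was among the narrower ones. Cacng1, a calcium channel subunit, had 4526, 3701 and 1332 reads at its promoter (chr11:107579671-107579919) and 4311, 4044 and 1281 on day 1, with an interval of -0.56 to 0.50.

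**Figure D4:**
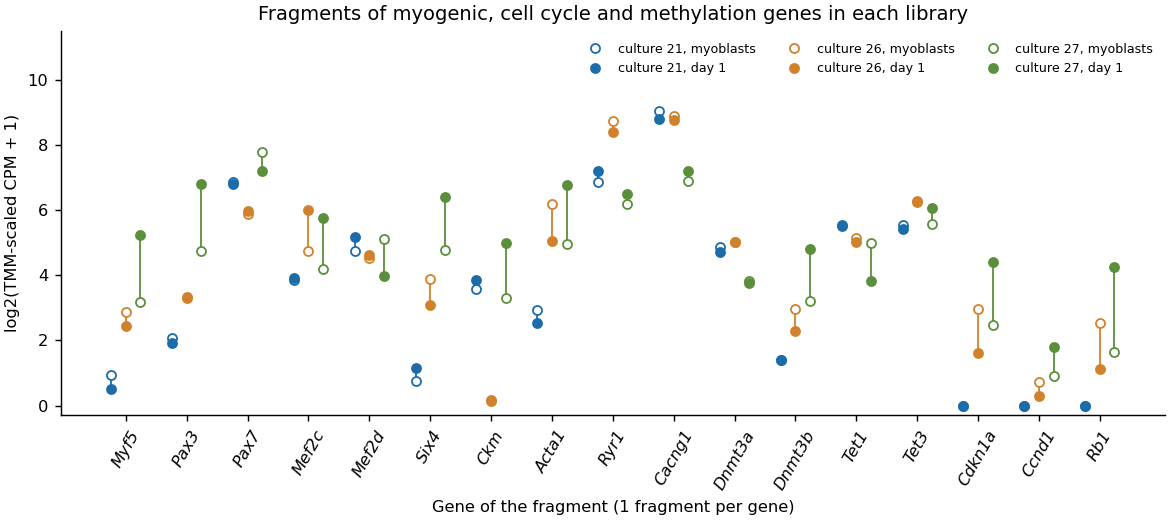
Level (y axis, log2 of TMM-scaled CPM + 1) of 1 fragment per gene (x axis) in myoblasts (open circles) and day 1 myotubes (filled circles) of each culture, with a line joining the pair. Pairs of culture 21 lie close together, and in culture 27 the lines are longer, with day 1 over myoblasts for genes such as Myf5, Pax3, Mef2c, Six4 and Rb1 and under for Pax7, Mef2d and Tet1.

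The methylation enzymes also gave no called fragment. Their list had 9 tested fragments of 5 genes, 0 called, and a median log2 difference of 0.33. The intronic fragment of Dnmt3a, a de novo methyltransferase (chr12:3819797-3819994), had 246, 242 and 148 reads in myoblasts and 249, 291 and 111 on day 1. The stages were close in every culture, and the log2 difference was -0.07 ± 0.38 (adjusted p = 1.0 by edgeR). A further intronic Dnmt3a fragment (chr12:3808575-3808803) had the smallest p of the list and few reads. It had 0, 4 and 12 reads in myoblasts and 0, 8 and 28 on day 1. Its log2 difference was 1.21 ± 0.77 (unadjusted p = 0.158 by edgeR), and it did not pass. The promoter shore fragment of Dnmt3b, the other de novo enzyme (chr2:153475769-153475964), had 14, 53 and 94 and then 16, 36 and 237 reads. Tet1 and Tet3 start the removal of methylation. The Tet1 fragment, intronic and in a B3 repeat (chr10:62290103-62291464), had 391, 264 and 349 reads and then 447, 289 and 117, and the intronic Tet3 fragment (chr6:83371074-83371977) had 394, 599 and 530 and then 412, 693 and 586. No tested fragment was found for Tet2, and Dnmt1 has no fragment.

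Cell cycle genes had 23 tested fragments of 15 genes, 0 called, and a median of 0.11. Cdkn1a, the inhibitor p21, had no reads in either library of culture 21 at an intronic CpG island (chr17:29231906-29232418). Culture 26 had 53 reads in myoblasts and 19 on day 1, and culture 27 had 51 and 179. Rb1, the retinoblastoma protein gene, showed the same order at an intronic CpG shore (chr14:73724692-73724863), with 0 and 0 reads in culture 21, 37 and 11 in culture 26, and 24 and 160 in culture 27. A further Rb1 fragment, at its promoter and CpG island (chr14:73725955-73727263), had the smallest p of the list and was higher on day 1 in each culture in scaled counts. It had 4, 16 and 71 reads in myoblasts and 7, 23 and 113 on day 1, with a log2 difference of 0.66 ± 0.50 (adjusted p = 1.0 by edgeR). The intronic fragments of both genes differed among cultures by edgeR (adjusted p = 0.0131 for Cdkn1a and 0.0245 for Rb1). So did the promoter fragment of Rb1 (adjusted p = 0.00969 by edgeR). Ccnd1, cyclin D1, was read at most 22 times in a library and gave 0 in culture 21.

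Lists for other cell types, which a primary culture could hold, were read the same way. The neural, endoderm and epithelium, blood, endothelial, fibroblast, adipocyte and Schwann cell lists had 0 called fragments, with medians of 0.14, 0.34, 0.34, -0.05, 0.03, 0.24 and 0.10 log2 units. Prdm16, a regulator of brown fat identity, had the smallest p of the adipocyte list, at a promoter fragment that overlaps a UTR (chr4:153902080-153902725). It had 4150, 2576 and 3333 reads in myoblasts and 4651, 6198 and 4669 on day 1. In scaled CPM the stages were 370 ± 96.9 and 559 ± 98.9 (SD, n = 3), and the day 1 value of culture 21, 476, lay within the myoblast range of 297 to 480. The log2 difference was 0.61 ± 0.26 (unadjusted p = 0.0456, adjusted p = 1.0 by edgeR). HOX fragments (16 tested) had culture medians of -0.16, -0.32 and 1.43, and imprinted fragments (17) -0.14, -0.04 and 0.18, again with 0 called. The pluripotency, germ line, chromatin and signalling lists also had 0 called, with medians of 0.39, 0.10, -0.33 and 0.07.

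Among fragments that moved one way in all 3 cultures, the smallest p in the higher direction belonged to the promoter of Timm10, a mitochondrial import protein (chr2:84666782-84667395, overlapping a UTR). It had 1, 19 and 72 reads in myoblasts and 7, 38 and 551 on day 1. The log2 difference was 2.17 ± 0.65 (unadjusted p = 0.00925, adjusted p = 1.0 by edgeR). By culture it was 0.62, 0.56 and 3.10 on scaled CPM with 1 added. Without culture 27 the fitted difference was 1.08, and without culture 26 it was 3.04. The chr4 and chr11 fragments printed above were better covered. The chr4 fragment had 5291, 846 and 1784 reads and then 6613, 2768 and 2823, with a log2 difference of 0.87 ± 0.29. The chr11 fragment had 778, 523 and 658 and then 1146, 1474 and 1375. Its stages did not overlap, at 72.1 ± 16.1 and 144 ± 23.3 scaled CPM (SD, n = 3). It was picked by its small p and shared direction, so this gap follows from the choice and is no separate result. Both had an adjusted p of 1.0 by edgeR. In unscaled CPM the chr11 fragment had 103, 163 and 154 on day 1 and 74.1, 60.9 and 5.36 on day 2, where culture 27 was lowest.

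The same group held fragments of further genes. Actn3, the fast fibre alpha-actinin, had 0, 1 and 13 reads in myoblasts and 2, 6 and 40 on day 1, few in cultures 21 and 26. Gipc3, a PDZ domain protein, had 1075, 186 and 710 and then 1392, 478 and 2563 reads. Frmd8 (chr19:5865974-5866348, an intron) had 4921, 1322 and 1254 and then 6665, 3563 and 1559. Unc5b, a netrin receptor, had 540, 230 and 461 reads in an intron (chr10:60259435-60260058) and 675, 701 and 1276 on day 1. The shore fragment between Acaa1a and Myd88 (chr9:119249780-119250038) went from 53 to 720 reads in culture 27 and had 2 and 15 reads in the other myoblasts and 5 and 24 on day 1. Its fitted log2 difference was 2.20, and 0.61 without culture 27.

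Of the 12 fragments picked in the lower direction, 3 intronic ones had over 1000 reads in every library. They were picked for being lower on day 1 in each culture in scaled counts, so that agreement is no separate result. Aldh1a3, an enzyme of retinoic acid synthesis (chr7:73567314-73567724), had 7183, 8211 and 6512 reads in myoblasts and 6432, 8583 and 1774 on day 1. By culture its log2 differences were -0.33, -0.20 and -1.52, so culture 27 had the largest. March10, a ubiquitin ligase (chr11:105239018-105239437), had 5485, 3441 and 3861 and then 5447, 2984 and 1453. Pde4dip, a centrosome and Golgi protein also called myomegalin (chr3:97565436-97565749), had 4460, 3732 and 2485 and then 3578, 3313 and 1312. Its log2 differences by culture were close to each other, at -0.49, -0.44 and -0.56, and the fitted one was -0.50 ± 0.22 (unadjusted p = 0.0524, adjusted p = 1.0 by edgeR). The fragments printed above had fewer reads. Kif16b, a motor protein gene, had 5, 20 and 13 in myoblasts and 1, 10 and 1 on day 1. Thsd7a had 3, 30 and 73 and then 2, 15 and 14. The chr9 fragment had 10, 16 and 17 and then 7, 5 and 2. The chr1 fragment had 16, 415 and 103 and then 10, 164 and 53.

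Neighbouring fragments share the site between them, so the counts of both depend on the methylation of that site. Across 2335 neighbouring pairs of tested fragments, the day 1 differences of the 2 neighbours had a Pearson r of 0.19 in culture 21, 0.32 in culture 26 and 0.48 in culture 27. The difference of culture 21 from the others had r = 0.34 over the same pairs. These are descriptions across fragments of the same libraries. Neighbours can also lie in the same island or shore, and nearby pairs without a shared site were not compared. The part of the shared site in these values was not tested.

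The days that follow were compared with day 1 in the same way. Day 2 against day 1 gave 0 of 15735 fragments (0.0%) by edgeR, with 460 at an unadjusted p under 0.05, and 0 by DESeq2, with 1193. Without culture 27 there were 16. Day 4 against day 1 gave 28 of 16706 (0.168%), all higher on day 4. That count was 0 without culture 26, 0 without culture 27 and 437 without culture 21. Both share the day 1 libraries with the comparison of day 1 and myoblasts, and neither tests whether the steps differ.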

How the data were processed

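Analysis began from the deposited table of unscaled whole-number counts, 1 column for each library. The build is mm9, per the labels. Bowtie 0.11.3 and DESeq (version not given in the sources used here) appear in the submitters' processing notes. The 184 per-sample columns of the authors' other tables were not used. Starts and ends were checked against mm9, and genes are from GENCODE M1 (gene body and 2000 bp upstream, promoter to 500 bp downstream). Island, shore and repeat classes are the authors'. A fragment can touch several genes.

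The test was edgeR 4.0.16's quasi-likelihood F test (filterByExpr at 10 counts or more, then TMM scaling, culture as a block, 2-sided, Benjamini-Hochberg over all fragments tested, threshold 0.05) in 4 comparisons, with DESeq2 1.42.0 as an alternative. The fit was tested on simulated data. Culture numbers pair the libraries: deviations from the stage means correlated at 0.90, 0.62 and 0.73 within cultures 21, 26 and 27. Across cultures, myoblasts of culture 26 and day 1 of culture 27 correlated at 0.23, and the other pairs were negative. Taking deviations from a mean of 3 cultures itself pushes values across cultures below 0. Shares and numbers of fragments were compared by exact paired permutation. Scaled CPM had a pseudocount of 1 on the log scale. The edgeR and DESeq2 fits use PCR reads without molecular identifiers, so copies of a molecule count as separate reads. Both fits also estimate the spread between libraries.

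Named fragments are the best covered one of each of 26 fixed genes, the 12 with the smallest p per direction that moved alike in all 3 cultures, and the smallest p of each of 17 lists, not all printed; Rps18 and Dlx6os1 were added after their values were seen, and 1 fixed gene is not reported here. The members and lists were chosen with earlier results of these data known. Alternatives were scaling, tool, filter, lengths, libraries, the block and leaving out each culture.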

Additional observations from a re-analysis of the deposited data

How the results depend on the processing

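Day 1 against myoblasts gave 0 fragments in either direction under every alternative, except that leaving out each culture gave 0 to 1 higher and 0 to 1 lower. With no replicate block, so without the pairing by culture, edgeR also gave 0. Differences among cultures (6633) ran from 403 to 8745 when each culture was left out, and stayed within 1.5 times under the other settings. Day 2 against day 1 ran from 0 to 16 when each culture was left out. The 28 fragments of day 4 against day 1 depended on most settings: 0 with no replicate block, with library totals, with fragments of 200 bp or more and with all 12 libraries, 11 with DESeq2, 18 with no low-count filter, 57 with all fragments, and 0 to 437 when each culture was left out. The cause was not tested.

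Several log2 differences that had not passed changed sign. Acta1 was -0.06 with library totals and -0.10 with all 12 libraries. Ryr1 was -0.10 with no replicate block and -0.01 with library totals. Cacng1 was 0.05 and the better covered Dnmt3a fragment 0.01 with all fragments. Tet3 was -0.01 and Ccnd1 -0.07 with all 12 libraries. When each culture was left out, the range was -0.62 to 0.96 for Myf5, -0.08 to 1.05 for Pax3 and -0.41 to 0.03 for Pax7. It was -0.56 to 0.30 for Mef2d, -0.40 to 1.27 for Six4, -0.87 to 0.65 for Acta1 and -0.02 to 0.24 for Ryr1. For Cacng1 it was -0.18 to 0.07, for Dnmt3b -0.47 to 0.89, for Tet3 -0.07 to 0.21 and for Cdkn1a -1.65 to 2.01. The intronic Rb1 fragment ranged from -1.91 to 2.92. The promoter fragment of Rb1 kept its sign, at 0.40 to 0.80. Differences in the share of reads, in percentage points, ran from -0.443 to 1.96 for promoters, -0.675 to 0.102 for exons, -0.493 to 0.580 for intergenic fragments, -0.259 to 1.44 for CpG islands, -0.306 to 1.19 for shores, -1.12 to 0.304 for LINE, -1.30 to 0.0899 for SINE and -1.67 to 0.717 for LTR. In each of these shares the sign changed without culture 27. With a culture left out 2 pairs remain, and an exact p cannot go below 0.5. Read counts of 0 in culture 21 limit what can be said there of Cdkn1a, the intronic Rb1 fragment and Ccnd1.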
